A study of Mus musculus with 8 samples.

Results

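A set of 9 genes of transforming growth factor beta (TGF beta) signalling were followed in activated mouse CD4 T cells labelled as wild type or as lacking Bcl6: the accessory receptors Eng and Tgfbr3, the signalling receptors Tgfbr1 and Tgfbr2, the ligand Tgfb1, the signal transducer Smad3 and the inhibitors Smad7, Ski and Skil. They were chosen by name, with earlier results of these data known. They are the 9 genes with these symbols among 19938 genes that the platform annotation names from probe sets with a single symbol. Each of the 9 had 1 probe set, all 9 lay above the filter on low signal in all 8 arrays, and all 9 were therefore tested among 11926 genes. Eng, which encodes the co-receptor endoglin, fell 1.42-fold in the arrays labelled KO. The other 8 did not pass the test, and their 95% intervals of the difference lay between -0.26 and 0.21 on the log2 scale.

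Messenger RNA was measured on Affymetrix whole-transcript arrays. The cells were naive CD4 T cells, obtained by sorting, of wild-type mice (WT, 4 arrays) and of mice with a conditional Bcl6 deletion restricted to T cells (Bcl6-/-, KO, 4 arrays). All cells of both groups were stimulated over 24 hours through CD3 and CD28 by antibodies, in the presence of IL-6 and IL-21 and of antibodies against IL-4, interferon gamma and TGF beta, per the labels' protocols. The labels call the cells Tfh cells. Strain, age, the Cre driver, the targeted allele and the number of mice behind each group are not given in the sources used here, so the p-values reflect only the variation among these arrays, part of which may be technical. Because both groups received the antibody to TGF beta, the comparison shows transcript levels in cells whose access to the ligand was meant to be blocked.

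Bcl6 itself stood at 8.61 to 8.91 in the WT-labelled and 9.08 to 9.19 in the KO-labelled arrays (log2 signal, difference 0.38 ± 0.0645, SE, limma adjusted p = 0.0303), and its single probe set does not check the labels where the position of the deleted exons is not known, so all directions are those of the arrays as labelled. KO replicate 1 stood apart: its median deviation from its group mean was 0.115 log2 units, the other 7 arrays had 0.035 to 0.0725, and it correlated best with WT replicate 3. All 7 T cell markers and all 7 Tfh markers on the array lay above the filter in all 8 arrays, as did 5 of 6 CD8 T cell markers, 8 of 9 regulatory T cell markers, 3 of 6 stromal and 1 of 2 erythroid markers. Of the B cell, myeloid and endothelial lists, 1 of 5, 1 of 8 and 1 of 7 did so. The number of arrays limits the precision.

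TGF beta is secreted in a latent form and, once released, binds the type II receptor Tgfbr2, which recruits and phosphorylates the type I receptor Tgfbr1. Tgfbr1 then phosphorylates the receptor-regulated Smads, among them Smad3, which enter the nucleus and act on target genes. Smad7 blocks the receptors and is itself a target gene, Ski and Skil hold Smad complexes in a repressed state, and the accessory receptors Tgfbr3 (betaglycan) and Eng (endoglin) bind ligand together with the signalling receptors. In T cells the pathway restrains activation and effector functions, promotes Foxp3 in regulatory T cells and, together with IL-6, directs cells to the Th17 fate.

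The promoter of Eng, the gene that changed, and that of Tgfbr2, the ligand-binding receptor it works with, are shown for comparison. Each is the 300 bases from 250 before to 50 after the annotated start, from RefSeq on GRCm38.p6, written 5′ to 3′ on the gene's strand. Capitals mark CAGAC or its reverse complement GTCTG, the short Smad-binding letters. Eng is at chr2:32646345-32646644 on the plus strand and Tgfbr2 at chr9:116175314-116175613 on the minus strand.
Eng: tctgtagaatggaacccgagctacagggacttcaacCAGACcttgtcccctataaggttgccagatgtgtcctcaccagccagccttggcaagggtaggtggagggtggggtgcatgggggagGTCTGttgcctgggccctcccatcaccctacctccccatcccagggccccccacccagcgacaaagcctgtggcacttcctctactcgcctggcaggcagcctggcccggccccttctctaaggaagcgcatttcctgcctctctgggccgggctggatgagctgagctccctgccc
Tgfbr2: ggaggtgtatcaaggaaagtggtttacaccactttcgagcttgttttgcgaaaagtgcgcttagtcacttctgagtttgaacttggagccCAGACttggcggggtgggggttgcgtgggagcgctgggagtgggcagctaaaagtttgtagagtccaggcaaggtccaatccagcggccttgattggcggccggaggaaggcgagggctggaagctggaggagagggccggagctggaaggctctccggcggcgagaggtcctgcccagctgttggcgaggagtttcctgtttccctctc

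The table had windows for 6 of the 9 genes, 7 windows in all with 2 for Tgfbr1. The Eng window held 2 such matches, starting at bases 37 and 124 of the window, and the Tgfbr2 window held 1, at base 91. Of the other 5 windows, 1 of the 2 of Tgfbr1 held 1 and the remaining 4 held none. Such letters are common, and 49.6% of all 32851 promoter windows in the table held at least 1. None of the 7 held the Bcl6 core TTCCTAGAA (found in 0.411% of all windows on either strand) or the Smad palindrome GTCTAGAC (0.213%), which says only that these letters are not in these windows. The Eng window had 6 CpG dinucleotides and the Tgfbr2 window 15. The windows of Ski, Smad3 and Tgfb1 had 59, 25 and 30 and the 2 of Tgfbr1 34 and 3, against a median of 7 over all windows. The GC box GGGCGG, searched on both strands and found in 35.7% of all windows, occurred 6 times in the windows of Tgfb1 and Ski, 2 times in that of Smad3 and in the first of Tgfbr1, and not in those of Eng and Tgfbr2 or in the second of Tgfbr1.

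Eng was lower in every KO-labelled array than in any WT-labelled array. Its log2 signal was 8.13, 7.96, 7.97 and 7.81 in WT replicates 1 to 4 and 7.49, 7.38, 7.60 and 7.38 in KO replicates 1 to 4. The mean went from 7.97 ± 0.131 to 7.46 ± 0.105 (SD, n = 4 each), a difference of -0.51 ± 0.0759 (SE; 95% interval -0.67 to -0.34; limma adjusted p = 0.0181). The exact permutation test of 4 against 4 gave p = 0.0286, the smallest such a design allows. Any gene whose groups do not overlap gets this value, and 10.8% of all tested genes had such groups, so it adds nothing to the lack of overlap. In limma 1 of the 9 genes was called, where 1.32% of all tested genes were called in either direction, 0.671% as lower and 0.646% as higher. It was again 1 of the 9 without KO replicate 1, where 2.67% of all tested genes were called as lower and 3.88% as higher. The 9 were chosen with earlier results of these data known, so these shares are given for scale and carry no test. By size Eng ranked 9 among the 80 genes called lower. Its mean signal was the lowest of the 9 genes in both groups. In the KO-labelled arrays Eng stood near the array medians, which were 7.42, 7.37, 7.37 and 7.35 in replicates 1 to 4.

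The fall of Eng did not rest on KO replicate 1, and its size was similar in all fits that left out an array. Without KO replicate 1 the difference was -0.51 (limma adjusted p = 0.00941). The call was lost without WT replicate 2 (limma adjusted p = 0.0843), without WT replicate 3 (0.0736) and without KO replicate 2 (0.079), while the difference stayed between -0.56 and -0.45 over the 8 fits with 1 array left out.

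Tgfbr3, the other accessory receptor, stood at nearly 1 level. Its log2 signal was 9.49, 9.54, 9.53 and 9.59 in the WT-labelled arrays and 9.59, 9.57, 9.55 and 9.52 in the KO-labelled arrays, and the groups overlapped. The difference was 0.02 ± 0.0432 (SE; 95% interval -0.08 to 0.12; limma adjusted p = 0.888). Taken within each array, the log2 signal of Eng minus that of Tgfbr3 was -1.36 to -1.78 in the WT-labelled and -1.95 to -2.19 in the KO-labelled arrays, a shift of -0.53. Relative to Tgfbr2 the shift was -0.44, and relative to Tgfbr1 it was -0.46, where the groups overlapped. These shifts restate the fall of Eng on another scale and carry no test.

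**Figure D1:**
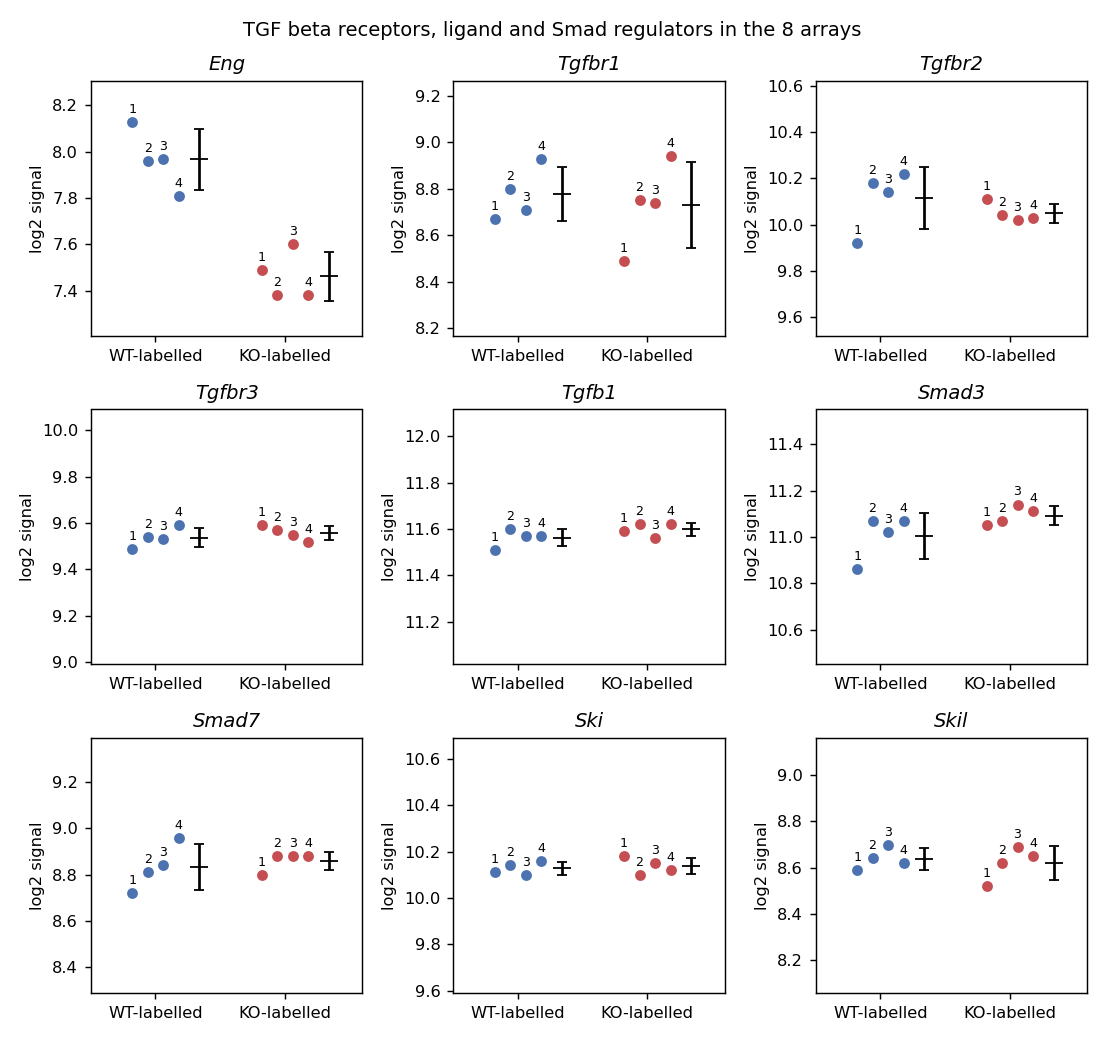
Log2 signal of the 9 genes (vertical axis, spanning the same number of log2 units in every panel) in 4 WT-labelled and 4 KO-labelled arrays. Points are single arrays with their replicate numbers, and bars give the mean ± SD of each group. In Eng all KO-labelled values (7.38 to 7.60) lie below all WT-labelled values (7.81 to 8.13), and in the other 8 panels the groups overlap.

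The signalling receptors did not pass. Tgfbr1, the type I receptor kinase, read 8.67, 8.80, 8.71 and 8.93 in the WT-labelled and 8.49, 8.75, 8.74 and 8.94 in the KO-labelled arrays. Its spread within a group was the widest of the 9 genes in the KO-labelled arrays (SD 0.185), with KO replicate 1 lowest and KO replicate 4 highest, and the difference was -0.05 ± 0.0932 (SE; 95% interval -0.26 to 0.16; limma adjusted p = 0.875). The difference was 0.03 without KO replicate 1 and 0.0033 without WT replicate 4, so its sign was not settled. Tgfbr2, the type II receptor that binds the ligand, read 9.92, 10.18, 10.14 and 10.22 in the WT-labelled and 10.11, 10.04, 10.02 and 10.03 in the KO-labelled arrays. WT replicate 1 was below all KO-labelled values and the other 3 WT-labelled arrays were above all of them. The difference was -0.07 ± 0.0668 (SE; 95% interval -0.21 to 0.08; limma adjusted p = 0.709), and -0.13 without WT replicate 1.

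Tgfb1, the ligand that T cells make themselves, was among the least variable of the 9. It read 11.51, 11.60, 11.57 and 11.57 in the WT-labelled and 11.59, 11.62, 11.56 and 11.62 in the KO-labelled arrays, with overlapping groups. The difference was 0.04 ± 0.0426 (SE; 95% interval -0.06 to 0.13; limma adjusted p = 0.767).

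Of the Smads, Smad3, which carries the signal from the receptor to the nucleus, did not pass. Smad3 read 10.86, 11.07, 11.02 and 11.07 in the WT-labelled and 11.05, 11.07, 11.14 and 11.11 in the KO-labelled arrays. All 4 KO-labelled values lay above those of WT replicates 1 and 3 and overlapped with the other WT-labelled values, and the difference was 0.09 ± 0.0568 (SE; 95% interval -0.04 to 0.21; limma adjusted p = 0.508). Without WT replicate 1 it was 0.04. Smad7, the inhibitory Smad that the pathway induces as its own brake, read 8.72, 8.81, 8.84 and 8.96 in the WT-labelled and 8.80, 8.88, 8.88 and 8.88 in the KO-labelled arrays. All 4 KO-labelled values lay inside the WT-labelled range. The difference was 0.03 ± 0.0566 (SE; 95% interval -0.10 to 0.15; limma adjusted p = 0.882).

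The nuclear corepressors Ski and Skil, a pair of related proteins that bind Smad complexes, had the differences nearest to 0. Ski read 10.11, 10.14, 10.10 and 10.16 in the WT-labelled and 10.18, 10.10, 10.15 and 10.12 in the KO-labelled arrays (difference 0.01 ± 0.0421, SE; 95% interval -0.08 to 0.10; limma adjusted p = 0.946). Skil, which is also induced by the pathway, read 8.59, 8.64, 8.70 and 8.62 in the WT-labelled and 8.52, 8.62, 8.69 and 8.65 in the KO-labelled arrays (difference -0.02 ± 0.051, SE; 95% interval -0.13 to 0.10; limma adjusted p = 0.923). The groups overlapped in both genes. The differences without KO replicate 1 were -0.0042 for Ski and 0.02 for Skil, so neither had a settled sign.

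**Figure D2:**
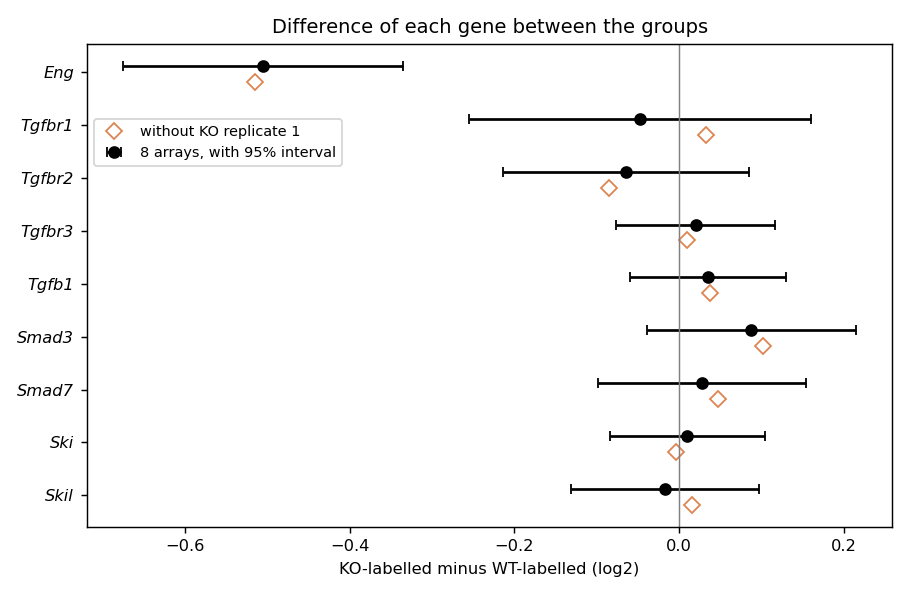
KO-labelled minus WT-labelled difference in log2 signal (horizontal axis) for each of the 9 genes. Black points are the fit over all 8 arrays with its 95% interval, and open diamonds the fit without KO replicate 1. The interval of Eng runs from -0.67 to -0.34, and those of the other 8 genes include 0.

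Within the groups, several of the genes varied together and Eng varied against them. In the WT-labelled arrays 7 of the 9 genes were lowest in replicate 1, the exceptions being Ski and Eng, and Eng was highest there. Over the 8 arrays, with each value centred on its group mean, Pearson's r was 0.82 between Tgfbr2 and Tgfbr3, 0.79 between Tgfbr2 and Smad3 and 0.77 between Smad3 and Smad7. It was -0.80 between Eng and Tgfb1 and -0.75 between Eng and Smad7. Of the 36 pairs, 4 had r over 0.7 and 2 under -0.7. These points share their arrays and the normalization across them, so the values describe the arrays and carry no test.

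The genes whose centred values followed Eng most closely over the 8 arrays, out of all tested genes with a full name, were Dusp10, a phosphatase that acts on stress-activated MAP kinases (r = 0.96), Hectd4, which encodes a HECT-domain protein (r = 0.92), and Ap5z1, a subunit of the AP-5 adaptor complex (r = 0.91). These r values are high by selection, as the highest among all such genes over only 8 arrays, and carry no test. Dusp10 read 9.90 to 10.02 in the WT-labelled and 9.71 to 9.83 in the KO-labelled arrays. None of Dusp10, Hectd4 and Ap5z1 passed the test between the groups, with differences of -0.19, -0.19 and -0.14 (limma adjusted p = 0.0838, 0.115 and 0.22).

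Markers of regulatory T cells, a cell type that a sort of naive CD4 T cells can let through, differed in both directions between the groups, 5 of 9 lower and 4 higher in the KO-labelled arrays, with a median of -0.05. Of the 9, 1 passed as lower: Gpr83, an orphan receptor abundant in these cells, fell by 0.63 (limma adjusted p = 0.00333). Foxp3, their lineage factor, read 8.21, 8.43, 8.70 and 7.84 in the WT-labelled and 7.76, 7.51, 7.62 and 7.58 in the KO-labelled arrays (difference -0.68 ± 0.153, SE, limma adjusted p = 0.0648). Ikzf2, the gene of Helios, differed by -0.54 (limma adjusted p = 0.114). Nrp1, the gene of neuropilin, differed the other way, by 0.43 (limma adjusted p = 0.202). Without KO replicate 1, Nrp1 passed as higher (limma adjusted p = 0.0285). Foxp3 (0.0304), Lrrc32 (0.031) and Gpr83 (0.000438) then passed as lower. In that fit 2.67% of all tested genes passed as lower and 3.88% as higher. Groups did not overlap in 5 of the 9 markers, in 4 of 7 Tfh markers and in 2 of 5 tested CD8 T cell markers. They did not overlap in 1 of 7 T cell markers and in 0 of 3 tested stromal markers. The share was 10.8% over all tested genes and 1 of the 9 TGF beta genes. Among the 5 regulatory T cell markers without overlap, Il2ra was higher in the KO-labelled arrays, by 0.11 (limma adjusted p = 0.268). Foxp3, Lrrc32, Ikzf2 and Gpr83 were lower there, with differences of -0.68, -0.92, -0.54 and -0.63. Il2ra, Ctla4, Tnfrsf18 and Izumo1r had the highest WT-labelled means of the list (13.24, 11.32, 11.61 and 11.20) and differed by 0.11, 0.11, -0.05 and 0.06. Of the Tfh markers, Tox, a nuclear factor, fell by 0.39 (limma adjusted p = 0.0423) and Pdcd1, an inhibitory receptor gene, differed by -0.22 (0.0931). Bcl6 and Il21 did not overlap either and were higher, by 0.38 (limma adjusted p = 0.0303) and 0.115 (0.268). Of the 7 Tfh markers 2 were higher and 5 lower, with 1 call in each direction. Of the 5 tested CD8 T cell markers 3 were lower and 2 higher, with a median difference of -0.04. Crtam, a receptor of CD8 T and NK cells, differed by -0.54 (limma adjusted p = 0.0763) and Prf1, the perforin gene, by -0.44 (0.102). Gzmb differed the other way, by 0.35 (limma adjusted p = 0.385), and Cd8a and Cd8b1 by -0.04 and 0.03. Crtam passed as lower without KO replicate 1 (limma adjusted p = 0.0199). The mean log2 signal of the 9 regulatory T cell markers was 9.90 to 10.13 in the WT-labelled and 9.74 to 9.80 in the KO-labelled arrays. Ikzf2 read 6.89 to 6.99 in the KO-labelled arrays and lay below the filter in KO replicates 1 and 3. In these bulk samples fewer cells of a type and less RNA per cell cannot be told apart.

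Within the WT-labelled arrays Eng and Gpr83 were highest in replicate 1, whereas Foxp3, Lrrc32 and Ikzf2 were highest in replicate 3. Eng, Foxp3, Lrrc32 and Ikzf2 were lowest in replicate 4 and Gpr83 in replicate 3. Over the 8 arrays, centred on the group means, r with Eng was 0.39 for Foxp3, 0.48 for Lrrc32, 0.35 for Gpr83 and 0.23 for Ikzf2. The part of these cell types in the fall of Eng was not tested. Endoglin is best known from endothelial cells, and of 7 endothelial markers 6 lay below the filter in all 8 arrays, Cdh5, Kdr, Tek, Tie1, Emcn and Esam. The remaining one, Pecam1, which T cells also make, differed by -0.12 (limma adjusted p = 0.514). The mean of the endothelial list was 6.61 to 6.64 in the WT-labelled and 6.56 to 6.69 in the KO-labelled arrays.

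**Figure D3:**
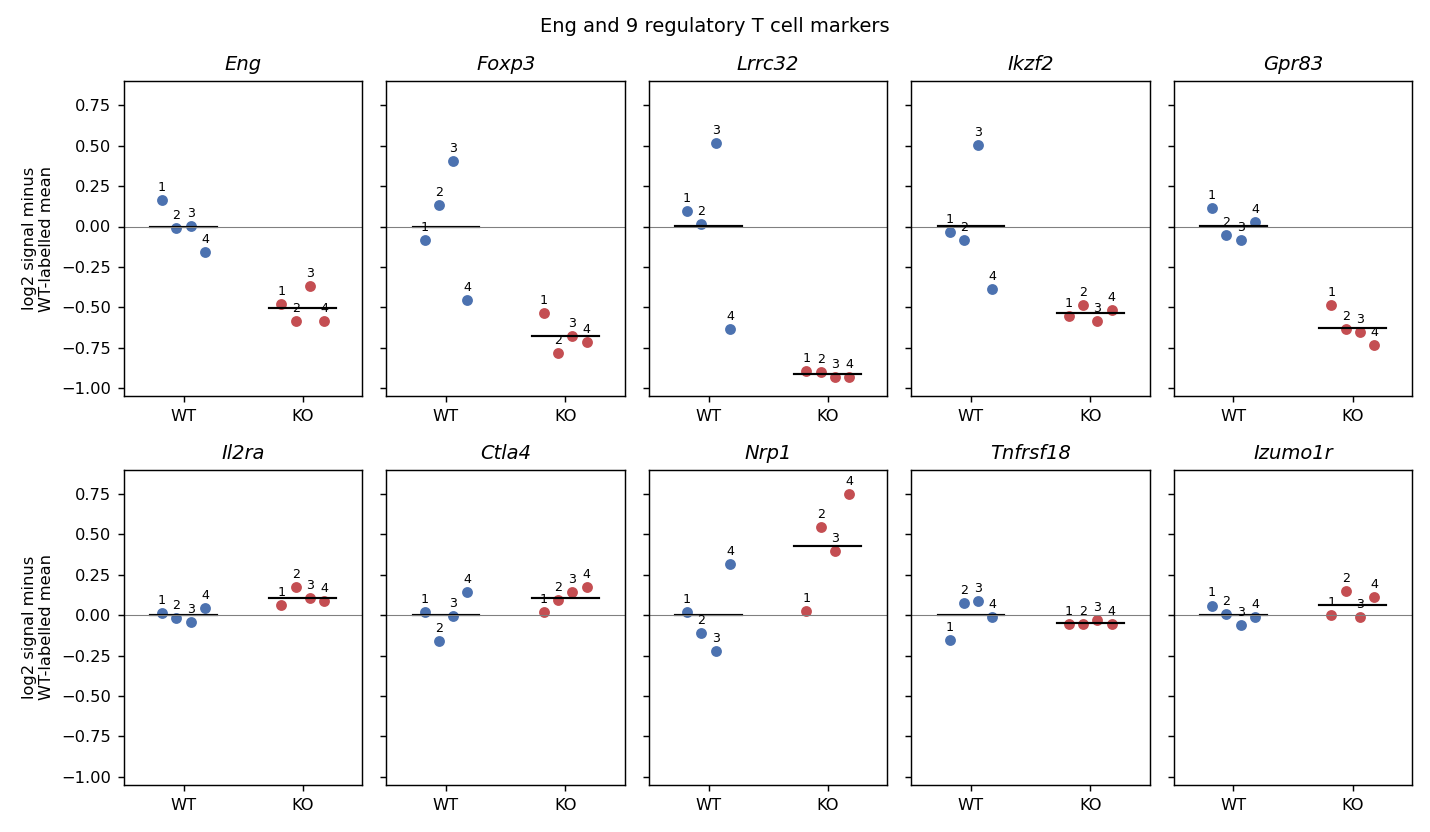
Log2 signal of Eng and of all 9 regulatory T cell markers, each minus its WT-labelled mean (vertical axis). Points are single arrays with replicate numbers, and black lines are group means. Eng, Foxp3, Lrrc32, Ikzf2 and Gpr83 are lower and Il2ra higher in every KO-labelled array, and the other 4 markers overlap between the groups.

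The rest of the pathway was described through 77 further genes, of which 60 were tested. Of these 60, 1 passed as higher and 1 as lower, that is 2 genes where 1.32% of all tested genes passed, and the median difference was -0.01 against -0.02 over all tested genes. Both were membrane-bound inhibitors that hold receptor-regulated Smads away from the receptor, and both are themselves raised by TGF beta. Pmepa1 read 10.43, 10.48, 10.47 and 10.55 in the WT-labelled and 10.70, 10.65, 10.76 and 10.74 in the KO-labelled arrays and rose by 0.23 ± 0.047 (SE, limma adjusted p = 0.0499). Ldlrad4 read 8.60, 8.57, 8.62 and 8.66 in the WT-labelled and 8.42, 8.41, 8.35 and 8.42 in the KO-labelled arrays and fell by 0.21 (SE 0.0431, limma adjusted p = 0.0495). These related genes thus moved in opposite directions, with no overlap between the groups in either.

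Pmepa1 and Ldlrad4 lay just inside the threshold, and both calls were lost in 7 of the 8 fits that left out 1 array, with limma adjusted p up to 0.167 for Pmepa1 and 0.156 for Ldlrad4. Both passed without KO replicate 1 (limma adjusted p = 0.0225 and 0.0199). The differences themselves stayed between 0.21 and 0.25 for Pmepa1 and between -0.23 and -0.20 for Ldlrad4 in those fits. They were the calls among 18 tested ubiquitin ligases, proteases and inhibitors.

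Among 11 tested genes of TGF beta ligands and their activation none passed in limma, and 3 had an unadjusted p under 0.05, as did 16.6% of all tested genes. Lrrc32, which encodes GARP, the protein that holds latent TGF beta on the surface of regulatory T cells, had the smallest p. It read 8.45, 8.37, 8.87 and 7.72 in the WT-labelled and 7.46, 7.45, 7.42 and 7.42 in the KO-labelled arrays, a difference of -0.92 ± 0.19 (SE, limma adjusted p = 0.0514). The KO-labelled values were nearly identical and the WT-labelled ones widely spread. Without KO replicate 1 Lrrc32 passed as lower (limma adjusted p = 0.031) and Inhba, an activin subunit, as higher (0.0209), and without WT replicate 4 Lrrc32 passed with a difference of -1.13 (0.00513). Lrrc32 is in the regulatory T cell list as well.

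No gene passed in limma among 8 tested receptors of the wider family, 12 tested Smads and transducers or 11 tested nuclear cofactors, where 2, 0 and 2 had an unadjusted p under 0.05. The genes with the smallest p were Acvr1b, a type I receptor for activins (-0.20 ± 0.0542, SE, limma adjusted p = 0.103), Zfyve16, an endosomal FYVE-domain protein that binds Smads (-0.16 ± 0.107, limma adjusted p = 0.513; -0.06 without KO replicate 1 and -0.25 without KO replicate 4), and Hdac1, a histone deacetylase found in corepressor complexes (0.19 ± 0.0636, limma adjusted p = 0.167). The median differences of these 3 lists were 0.02, 0.04 and -0.03. Without KO replicate 1, when 6.56% of all tested genes passed, 5 of the 60 pathway genes did: Pmepa1 and Inhba as higher, and Ldlrad4, Lrrc32 and the transcription factor gene Runx3 as lower.

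**Figure D4:**
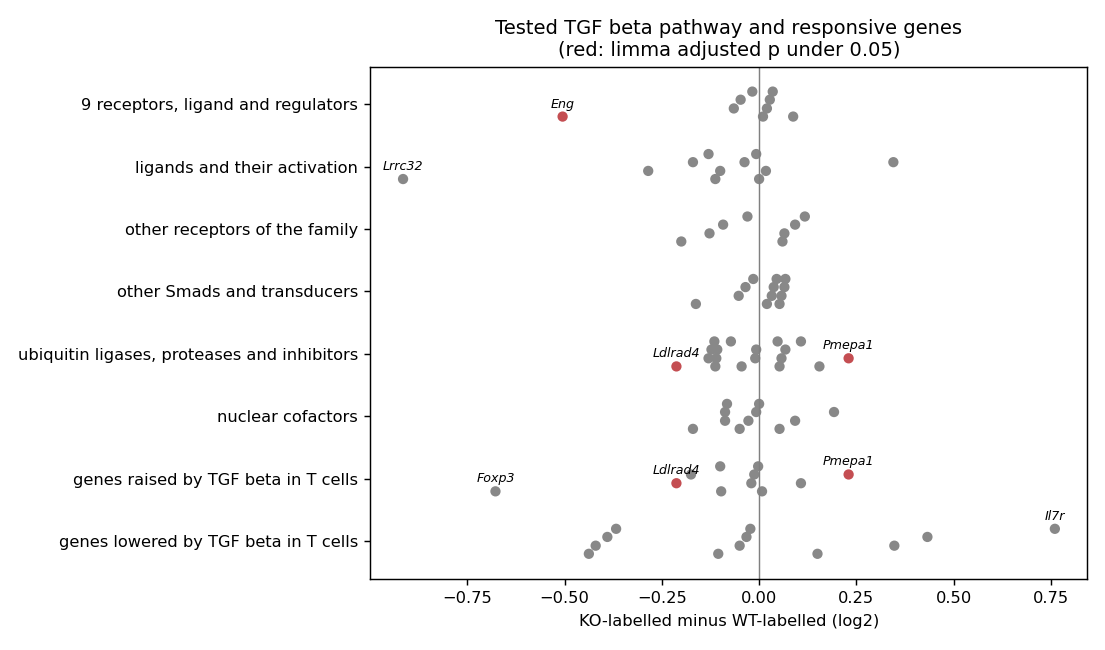
KO-labelled minus WT-labelled difference in log2 signal (horizontal axis) of the tested genes in each list (rows), with 1 point per gene and red for limma adjusted p under 0.05. Eng, Ldlrad4 and Pmepa1 are red, the last 2 in both lists that hold them, and Lrrc32, Foxp3 and Il7r lie furthest from 0 without passing.

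Genes listed as responding to TGF beta in T cells showed no common direction. Of 11 tested genes that the pathway raises, Pmepa1 rose and Ldlrad4 fell, both also counted above, and 9 did not pass. The median difference was -0.02, and 3 of the 11 had an unadjusted p under 0.05. Foxp3 belongs to this list too, and it passed as lower without KO replicate 1 (limma adjusted p = 0.0304). Of 12 tested genes listed as lowered by the pathway, none passed in limma and the median difference was -0.04. An unadjusted p under 0.05 was found for 6 of the 12, against 16.6% of all tested genes, and of the 6, 4 were lower and 2 higher in the KO-labelled arrays. Il2, the T cell growth factor gene, had the smallest p there and read 11.21, 11.18, 11.28 and 10.92 in the WT-labelled and 10.64, 10.99, 10.69 and 10.59 in the KO-labelled arrays (difference -0.42 ± 0.101, SE, limma adjusted p = 0.0782). Il7r, the IL-7 receptor chain, differed the other way, by 0.76 (limma adjusted p = 0.0794), and passed without KO replicate 1 (0.0381). Whether TGF beta lowers Il7r in these cells was not tested.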

How the data were processed

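The deposited table holds 1 log2 signal per probe set and array (35556 probe sets, 2 decimals). RMA and Partek were used, per the submitters' processing notes; versions, genome build and order of steps are not given in the sources used here. RMA makes array distributions nearly equal (array medians 7.35 to 7.42), which hides any shift in the total RNA of a cell. Probe sets were named from the platform annotation: 21789 had 1 symbol, 1621 several and 12146 were not listed. Genes were tested where the signal exceeded the 40th percentile of the single-symbol probe sets in at least 4 arrays, with Bcl6 kept whatever its level, and where a gene had several probe sets the one with the highest mean stood for it.

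Groups came from the sample titles. The groups were compared by limma (version 3.58.1, R 4.3.3; lmFit, eBayes, two-sided, no block). P-values were adjusted after Benjamini and Hochberg over the 11926 genes, and genes under 0.05 are called. Eng also received a two-sided exact permutation test. The test was checked on simulated data. Members and lists were chosen with earlier results of these data known. Named were the 9 genes, up to 2 rises and 2 falls per list or else the gene with the smallest p, and the 3 genes most correlated with Eng; other genes named were chosen after their values were seen. Alternatives covered normalization, centring, filters, the variance prior, array weights, averaged probe sets, the replicate block, left-out arrays and thresholds. Promoter sequences were RefSeq's (GRCm38.p6); the values themselves use no coordinates.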

Additional observations from a re-analysis of the deposited data

Results flagged for a closer look

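In 3 of 46 groups of 4 values, 1 array lay far from the other 3, where chance gives about 1 in 20. The groups covered the 9 genes, the genes named by rule from the lists and those most correlated with Eng. Foxp3, Lrrc32, Gpr83, Ikzf2 and Bcl6 were included as well. Other genes named in the text were not examined. Smad7 was 8.80 in KO replicate 1 and 8.88 in each of the other 3 KO-labelled arrays, a gap widened by rounding to 2 decimals. Acvr1b was 8.89 in WT replicate 3 and 9.03 to 9.04 in the others. Ldlrad4 was 8.35 in KO replicate 3 and 8.41 to 8.42 in the others.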

How the results depend on the processing

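The fall of Eng kept its direction in all 18 alternatives (-0.56 to -0.45, limma adjusted p 0.00157 to 0.0843) and its call in 15, the 3 losses being left-out arrays; at a threshold of 0.01 the count of the 9 genes was 0, and over left-out arrays it was 0 to 1. The other 8 genes passed in no alternative. Signs turned for Skil with quantile normalization (0.0084), array weights (0.014) and without KO replicate 1 and WT replicate 3 together (0.037); for Ski with array weights (-0.00035) and without that pair (-0.013); and for Tgfbr1 without that pair (0.01). Over left-out arrays the ranges were -0.041 to 0.016 (Skil), -0.0042 to 0.0225 (Ski), -0.12 to 0.0325 (Tgfbr1), -0.01 to 0.07 (Smad7), 0.04 to 0.11 (Smad3) and -0.13 to -0.03 (Tgfbr2). Calls over all genes numbered 322 with quantile normalization, 78 with median centring, 58 with no filter (more genes tested), 354 with an intensity trend and robust prior, 1980 with array weights, 443 without KO replicate 1 and WT replicate 3, 27 and 468 at thresholds of 0.01 and 0.1, and 31 to 782 over left-out arrays. Centring left 48 higher and 30 lower, against 77 and 80; quantile normalization gave 173 and 149. The pathway count of 2 became 0 with centring, no filter, averaged probe sets, the block, a threshold of 0.01 and, in an alternative chosen after seeing the data, a filter percentile over all probe sets. It was 12 with array weights, 4 without that pair and 0 to 5 over left-out arrays. With quantile normalization and with the trend it stayed at 2, but the calls were Lrrc32 and Pmepa1. Ldlrad4 did not pass in those fits (limma adjusted p = 0.0624 and 0.0636). The count of responsive genes, 2, became 0 in the same 6 settings, 1 with quantile normalization, 4 with the trend, 10 with weights, 5 at 0.1 and 0 to 4 over left-out arrays. The cause of these shifts was not tested. With the replicate number as a block, Eng kept its call (limma adjusted p = 0.0405) and 36 genes passed in all. Deviations of same-numbered arrays correlated at 0.01, 0.14, -0.17 and 0.31, so the numbers were not taken to pair the arrays, and 2 of the 4 WT-labelled arrays correlated best with their own number.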

Other observations

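A further 2 genes of the pathway, chosen after their values were seen, had groups that did not overlap without passing the test. Usp4, a deubiquitinase reported to act on the type I receptor, read 11.47 to 11.51 in the WT-labelled and 11.31 to 11.40 in the KO-labelled arrays (difference -0.13, limma adjusted p = 0.158). Bambi, a decoy receptor without a kinase domain, read 7.61 to 7.83 in the WT-labelled and 7.55 to 7.56 in the KO-labelled arrays (difference -0.13, limma adjusted p = 0.284). Of the 60 tested pathway genes 7 had groups that did not overlap (11.7%, against 10.8% of all tested genes). Of the 23 tested genes listed as responding to TGF beta 6 had such groups (26.1%). The lists were chosen with earlier results of these data known, so these shares carry no test.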
